A study of Mus musculus with 35 samples.

Results

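Transcripts of 42 genes that encode proteins of the synapse were followed in RNA from sorted mouse microglia. The genes were given as a list of symbols, each was matched to its row of the deposited count table through a GRCm38 gene annotation, and all 42 were present among the 21236 genes of that table. They fell into 12 genes of synaptic vesicles and the active zone, 8 of the SNARE fusion machinery, 12 of postsynaptic scaffolds and adhesion, 4 glutamate receptor subunits and 6 of calcium and activity signalling. Levels were counts scaled to a common library size (CPM) with TMM factors, which correct library totals for differences in composition. The list was divided at a mean of 5 CPM over all samples, which left 13 genes above and 29 below; Sv2a, at 6.24 CPM, was the lowest above it and Homer1, at 4.95 CPM, the highest below it.

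The samples came from 12 adult mice, 6 male and 6 female, and from 3 brain regions of each mouse, with 12 samples of midbrain, 12 of striatum and 11 of prefrontal cortex (PFC), since 1 male PFC sample was not among them. Every mouse, in every group, carried the same pair of alleles, Tmem119-2A-CreERT2, which places a tamoxifen-inducible Cre recombinase under the microglial gene Tmem119, and Ai14(RCL-tdTomato)-D, a reporter that Cre switches on, and every mouse received tamoxifen. Cells with tdTomato were sorted after enzymatic dissociation of the tissue, so a cell was taken by the activity of the Tmem119 locus. There were no untreated or unsorted samples among the 35.

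In neurons, synaptic vesicles are filled with transmitter by transporters, docked at the active zone by large scaffold proteins, and fused with the membrane when a SNARE protein of the vesicle pairs with SNARE proteins of the target membrane, after which NSF and its SNAP adaptors take the complex apart. Across the cleft, receptors are anchored to a postsynaptic density of Dlg, Dlgap, Shank and Homer proteins, and calcium that enters is read by calmodulin kinases. Several of these families have members that work in most cell types, such as Snap23, Napa and Camk2d, beside members that are best known from neurons, such as Snap25, Napb and Camk2a. Microglia prune synapses and engulf synaptic material.

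Total counts per sample ran from 37680501 to 54131421, so that 3 counts, the floor used here, corresponded to 0.0561 to 0.0789 CPM. The summed level of 14 markers of homeostatic microglia was 50101 to 63477 (median 56481) CPM per sample, against 214 to 507 (median 288) for 10 astrocyte markers, 231 to 896 (median 413) for 12 oligodendrocyte markers and 15.4 to 44.7 (median 24.1) for the 19 neuronal cell body and axon markers in the table. The label of microglia therefore held for the bulk of the RNA, with low levels of other cell types in every sample. In bulk RNA, fewer cells of a type and less RNA per cell cannot be told apart. One striatum sample, of mouse 3, had a column named for PFC and was assigned by its label. Without it, 16 of the 42 genes had a region effect as described below, against 18 with it.

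The bases before the RefSeq transcription start are shown for 5 of the genes, chosen as the genes below 5 CPM with the clearest regional differences that had a window in the table of promoters (Slc17a7, Nrgn and Syn1) and the most abundant genes above 5 CPM (Napa and Snap23). Capitals mark the GC box GGGCGG on either strand, a common binding site of Sp1-family factors, and the cyclic AMP response element TGACGTCA. Each is 250 bases long and is written 5′ to 3′ on the strand of the gene, in GRCm38.p6.
Slc17a7 (chr7:45163671-45163920, + strand): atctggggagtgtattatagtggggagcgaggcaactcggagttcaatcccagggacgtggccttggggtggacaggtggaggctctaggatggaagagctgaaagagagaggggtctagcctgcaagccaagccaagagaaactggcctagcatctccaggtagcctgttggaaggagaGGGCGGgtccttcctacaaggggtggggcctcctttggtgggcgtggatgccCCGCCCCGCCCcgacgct
Nrgn (chr9:37552746-37552995, - strand): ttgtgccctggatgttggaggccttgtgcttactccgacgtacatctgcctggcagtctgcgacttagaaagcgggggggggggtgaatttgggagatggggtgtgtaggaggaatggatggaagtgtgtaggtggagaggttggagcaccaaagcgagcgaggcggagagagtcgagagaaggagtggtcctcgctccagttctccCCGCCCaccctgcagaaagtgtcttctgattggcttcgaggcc
Syn1 (chrX:20920919-20921168, - strand): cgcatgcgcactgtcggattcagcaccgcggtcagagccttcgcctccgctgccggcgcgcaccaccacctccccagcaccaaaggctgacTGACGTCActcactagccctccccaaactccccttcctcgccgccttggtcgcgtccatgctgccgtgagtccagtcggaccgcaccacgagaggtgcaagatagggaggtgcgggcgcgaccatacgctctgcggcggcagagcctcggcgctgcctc
Napa (chr7:16098330-16098579, + strand): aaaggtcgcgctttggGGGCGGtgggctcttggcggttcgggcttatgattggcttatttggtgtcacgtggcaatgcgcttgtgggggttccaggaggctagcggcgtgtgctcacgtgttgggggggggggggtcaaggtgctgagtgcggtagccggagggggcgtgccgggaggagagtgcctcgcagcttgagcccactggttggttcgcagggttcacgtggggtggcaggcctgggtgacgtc
Snap23 (chr2:120567421-120567670, + strand): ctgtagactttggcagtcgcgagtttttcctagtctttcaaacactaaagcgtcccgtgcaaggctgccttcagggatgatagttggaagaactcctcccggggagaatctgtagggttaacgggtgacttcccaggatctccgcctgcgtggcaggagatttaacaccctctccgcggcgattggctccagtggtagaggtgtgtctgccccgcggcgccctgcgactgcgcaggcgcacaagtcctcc
The window of Slc17a7 held 3 GC boxes, of which the pair nearest the start overlapped, those of Nrgn and Napa held 1 each, and that of Snap23 held 0, while Syn1 had the only cyclic AMP element of the 5. Windows were found for 31 of the 42 genes. A GC box was present in 19 of these (61.3%), against 35.4% of the 27025 genes with at least 1 window, and in 8 of the 11 genes above 5 CPM and 11 of the 20 below. The cyclic AMP element was present in 1 (3.23%), against 1.77% of all genes. The core bound by the myeloid factor PU.1, GAGGAAGT on either strand, was in 0 of the 31 and in 2.79% of all genes. None of these patterns contains another, and these counts describe letters in a window, not binding.

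The levels of the 42 genes spanned a wide range. Together they averaged 753 CPM, and the 13 genes above 5 CPM made up 94.9% of this. Per kb of merged exons, the scale used here to compare genes with each other, the highest were Napa, which encodes the SNAP adaptor alpha-SNAP, at 55.8 CPM per kb, Snap23, a target-membrane SNARE of most cell types, at 30.1, and Vamp2, a vesicle SNARE, at 12.2. The lowest were Shank3, at 0.00441 CPM per kb, and the NMDA receptor subunit gene Grin2b, at 0.00321. Merged exons join all annotated transcripts of a gene, so this scale reads too low where the transcript present is shorter. Of the 29 genes below 5 CPM, 14 did not reach a mean of 1 CPM in any combination of region and sex, and 10 of these did not reach 1 CPM in any sample.

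The plot of levels per exon length sets related genes side by side. In the SNAP-25 family, Snap23 was at 30.1, Snap29 at 5.14 and Snap25 at 0.691 CPM per kb over all samples. Among the calmodulin kinases the order was Camk2d (4.98), Camk2g (1.11), Camk2b (0.738) and Camk2a (0.549), the last of these being the main forebrain neuronal form. Napa lay above Napb (0.297), Vamp2 above Vamp1 (0.259), Syt11 (5.62) above the calcium sensor Syt1 (0.0415), Homer3 (5.03) above Homer1 (0.413), Dlgap4 (7.37) above Dlgap1 (0.0578), and Dlg1 (1.19) above Dlg4 (0.025) and Dlg2 (0.0103), all in CPM per kb.

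In each of these families the highest sample of the lower gene remained under the lowest sample of the gene that led it. For Snap25 that highest sample was 2.04 CPM per kb, against a lowest sample of 24.2 for Snap23. Snap25 and Snap29, whose lowest sample was 3.95, did not overlap either. Camk2b and Camk2a did overlap, with ranges of 0.326 to 1.26 and 0.122 to 1.28 CPM per kb. Of the exon length of Homer3, 25.4% is shared with Ddx49 on the other strand, and the use of strand in the counting was not given in the sources used here, so the level of Homer3 is uncertain.

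**Figure D1:**
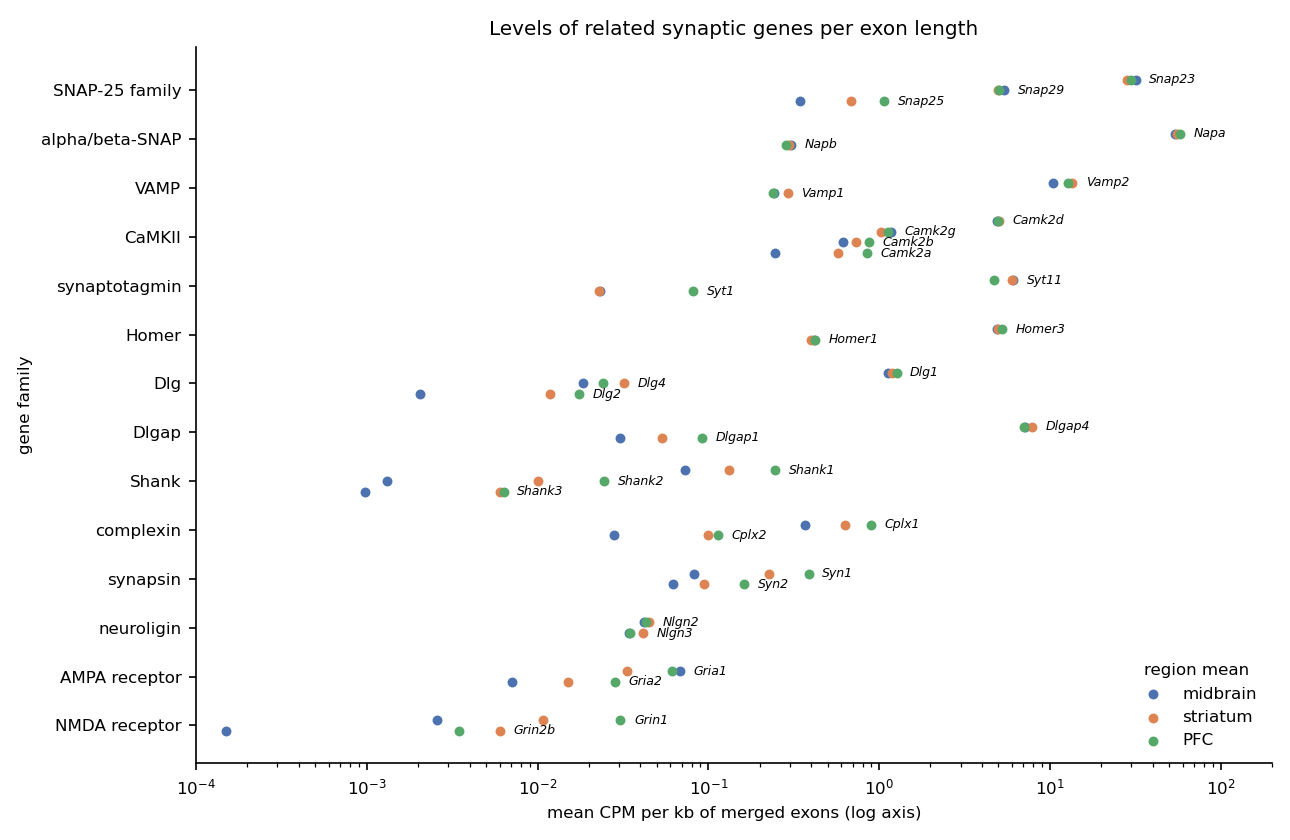
Mean level per kb of merged exons (log axis, CPM per kb) of related synaptic genes, 1 row per family, with a point for the mean of each region (midbrain and striatum, n = 12; PFC, n = 11). Snap23, Napa, Vamp2, Camk2d, Syt11, Homer3, Dlg1 and Dlgap4 stand at the right of their families with the 3 region means close together, while Snap25, Camk2a, Dlg2, Dlgap1 and Grin2b lie to the left with the midbrain mean lowest.

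The comparison between regions asked which of these transcripts differed among midbrain, striatum and PFC. A region effect was an adjusted p under 0.05 for any difference among the 3 regions, and a pair of regions was called different where a gene had a region effect, an unadjusted p under 0.05 for the pair and a fold change over 1.2. All p-values came from edgeR's quasi-likelihood F-test with region and sex as terms, adjusted by the Benjamini-Hochberg method across the 21236 genes of the table. Of the 42 genes, 18 had a region effect, against 8.89% of all genes tested. The list was chosen with earlier results of these data known, so this share is not a test of synaptic genes as a class. Among synaptic genes outside the list, 5 of 33 presynaptic and 6 of 29 postsynaptic genes had a region effect. Of the 29 below 5 CPM, 16 did, against 6.81% of all genes below 5 CPM, and of the 13 above, 2 did (Vamp2 and Nsf), against 11.4% of all genes above.

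Of the 18 genes with a region effect in the fit without pairing, all but Nsf had the same direction. Between PFC and midbrain 17 of the 42 were higher in PFC, against 2.75% of all genes, and 0 were lower, against 3.24%. Between striatum and midbrain 16 were higher in striatum, against 3.50% of all genes, and 0 were lower, against 2.98%. Both comparisons rest on the same midbrain samples. Between striatum and PFC, 7 were lower in striatum (Slc17a7, Syn1, Snap25, Shank1, Dlgap1, Camk2a and Nrgn), against 0.833% of all genes, and 0 were higher, against 2.31%. These zeros rest on the fit without pairing: with the mouse as a block, Syt11 was called lower in PFC than in midbrain and higher in striatum than in PFC. All but Vamp2 of the genes called against midbrain were below 5 CPM, where 2.86% of all genes were higher in PFC and 3.18% higher in striatum than in midbrain and 0.838% were lower in striatum than in PFC. By the adjusted p of the pair alone, with no minimum on the fold, 16, 14 and 1 genes passed in these 3 comparisons, against 6.52%, 7.45% and 0.570% of all genes. The 1 was Slc17a7, and 2 of the 14, Nsf and Snap23, were lower in striatum than in midbrain by less than 1.2-fold. The division at 5 CPM used means over all regions, so it is not independent of the regional differences. Snap25 and Camk2a, which lay below it, averaged 7.3 and 6.36 CPM in PFC.

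The median difference was larger below 5 CPM than above, but it did not change evenly with the level. Among the genes between 2 and 5 CPM, log2 differences of PFC over midbrain were 1.79 for Camk2a, 1.63 for Snap25 and 0.73 for Bsn. They were 0.01 for Homer1, -0.02 for Vamp1, -0.11 for Napb, -0.33 for Syp and -0.65 for Arc. For PFC against midbrain the median log2 fold change was 1.59 over the 29 genes below 5 CPM and 0.03 over the 13 above, against 0.02 and 0.01 over all genes below and above that level. For striatum against midbrain it was 0.87 below and 0.05 above, against 0.08 and -0.01 over all genes. Fitted differences of PFC over midbrain were above 0 for 24 of the 29 genes and 7 of the 13, against 5988 of the 11695 genes below 5 CPM and 5075 of the 9541 above. For striatum over midbrain they were above 0 for 25 of the 29 and 8 of the 13, against 6520 and 4513 of all genes.

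**Figure D2:**
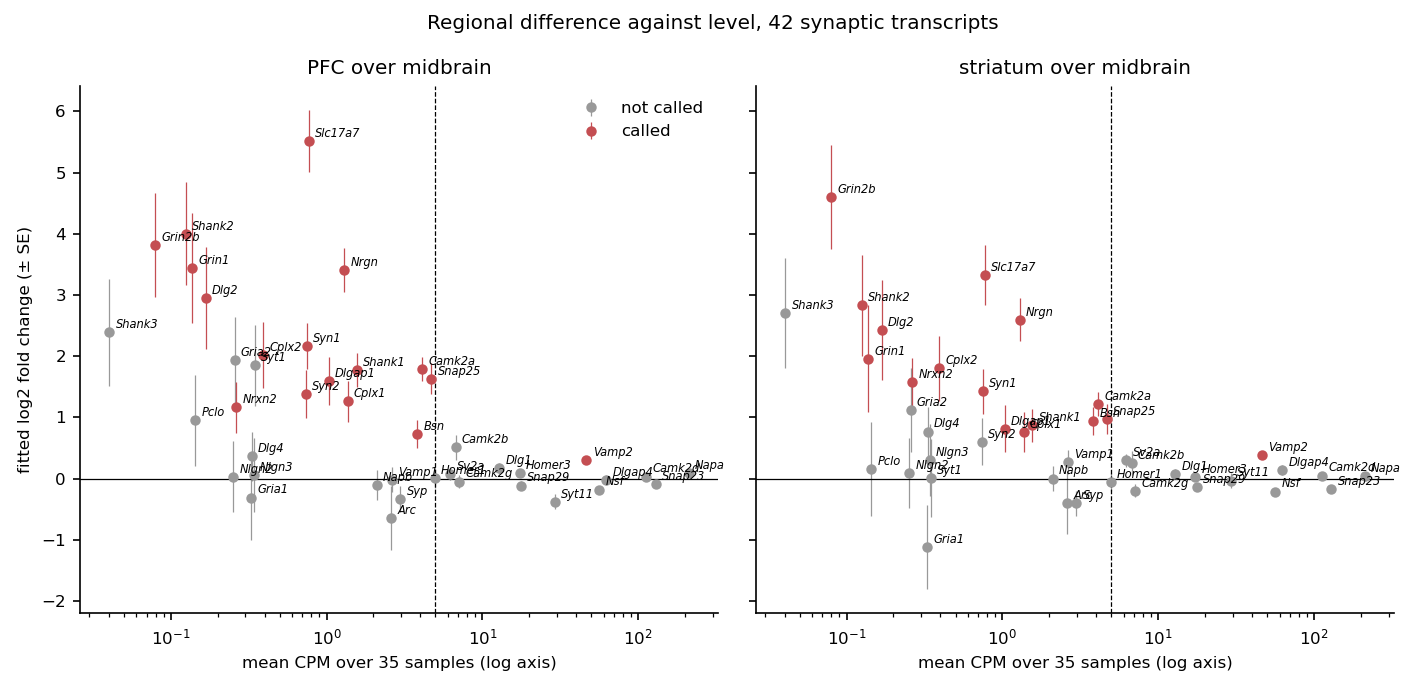
Fitted log2 fold change ± SE of PFC over midbrain (left) and striatum over midbrain (right) against mean CPM over the 35 samples (log axis) for the 42 genes, red where the pair was called. The 17 and 16 called genes are all above 0, and all but Vamp2 lie left of the dashed line at 5 CPM.

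Summed levels gave the same picture per sample. The 29 genes below 5 CPM summed to 17.8 to 36.3 (median 28.6) CPM in midbrain, 33.4 to 44.9 (median 37.5) in striatum and 31.7 to 77.8 (median 44.1) in PFC. The sum was higher in PFC than in midbrain in 11 of 11 mice and higher in striatum than in midbrain in 10 of 12. The 13 genes above 5 CPM summed to 658 to 750.1 (median 710.2) CPM in midbrain, 688 to 750.2 (median 712) in striatum and 676 to 774 (median 716) in PFC, with overlap of all regions, and were higher in PFC than in midbrain in 6 of 11 mice.

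The neuronal cell body and axon markers, none of which is among the 42 genes, were also lowest in midbrain by the median of their sum. Their sum was 15.4 to 24.3 (median 21.5) CPM in midbrain, 21.9 to 36.7 (median 26.9) in striatum and 19.8 to 44.7 (median 27.7) in PFC, higher than in midbrain in 12 of 12 mice for striatum and 10 of 11 for PFC. This direction was also seen in the sums of astrocyte and homeostatic microglia markers. Astrocyte sums were higher than in midbrain in 12 of 12 mice for striatum and 11 of 11 for PFC. Homeostatic microglia sums were higher in 11 of 12 and 11 of 11, with medians of 52532 CPM in midbrain, 59264 in striatum and 57841 in PFC. Oligodendrocyte sums were higher in 8 of 12 mice for striatum and only 2 of 11 for PFC. Of the 19 neuronal markers, 3 had a region effect (15.8%, against 8.89% of all genes), Rbfox3, Stmn2 and Map2. All 3 were higher in both PFC and striatum than in midbrain. Those of the 19 with the highest CPM were Elavl4, Celf4 and Eno2. No marker of the 19 was at 0 in every sample of a region. With the mean log2 level of these markers as a further term in the fit, 8 of the 18 region effects passed, those of Slc17a7, Nrgn, Camk2a, Snap25, Shank1, Shank2, Grin2b and Vamp2. The neuronal markers were themselves higher outside midbrain, so this term also takes up differences between regions. The share of all genes that passed with this term was not counted, so the 8 cannot be set against it. The part of neuronal RNA in the regional differences was not tested.

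Mouse 11 held both extremes of the low synaptic genes. Its midbrain sample had the lowest sum of the 29 genes, 17.8 CPM, and its PFC sample the highest, 77.8 CPM, and the same PFC sample had the highest sum of neuronal markers, 44.7 CPM. Without mouse 11, 11 of the 42 genes had a region effect, and Cplx1, Cplx2, Dlg2, Grin1, Nrxn2, Nsf and Syn2 were those that no longer passed. The called pairs were then 11 for PFC against midbrain and 10 for striatum against midbrain, again all higher outside midbrain. Without its PFC sample alone, an alternative added after the values were seen, 17 passed. Syn2 and Dlg2 were then lost and Syt11 gained, and Nrgn, Syn1 and Dlgap1 were no longer called between striatum and PFC.

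**Figure D3:**
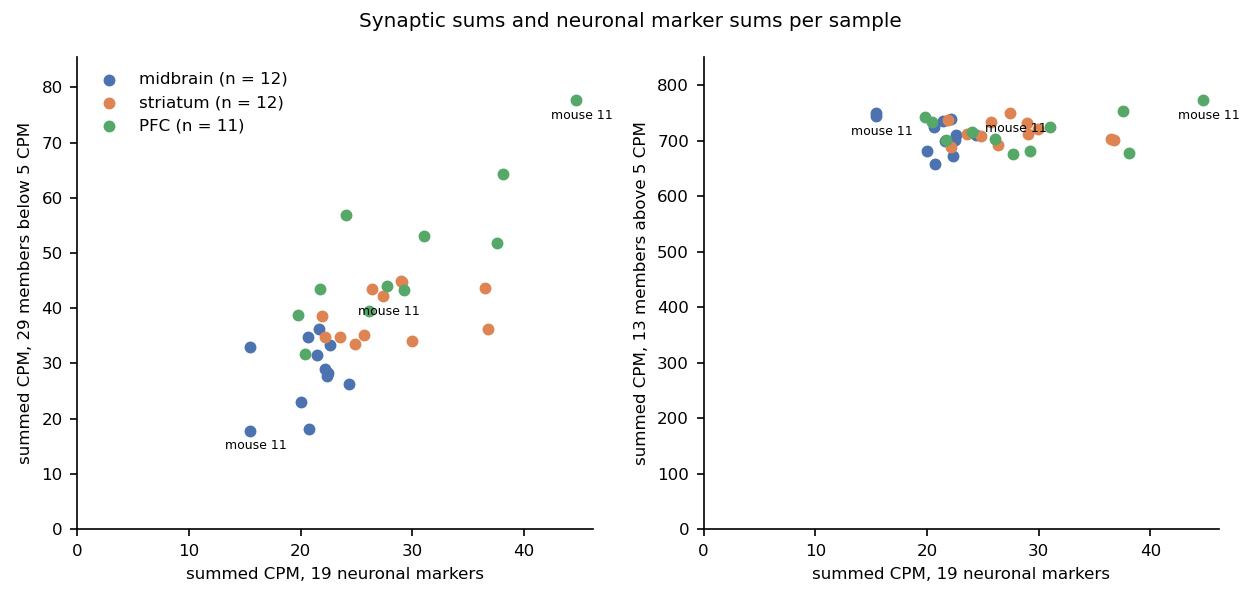
Summed CPM of the 29 synaptic genes below 5 CPM (left) and the 13 above (right) against the summed CPM of 19 neuronal markers, 1 point per sample, with the 3 samples of mouse 11 named. The low genes run from 17.8 to 77.8 CPM and rise to the right over the samples of all 3 regions together, and the abundant genes stay between 658 and 774 CPM. This pooled rise includes the difference between regions, and a rise within each region was not tested. In midbrain, mice 10 and 11 both had 15.4 CPM of neuronal markers, with 32.9 and 17.8 CPM of the low genes.

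Of the 12 genes of vesicles and the active zone, 7 were higher in PFC than in midbrain (2.75% of all genes). There were 6 higher in striatum than in midbrain (3.50%) and 2 lower in striatum than in PFC (0.833%). The largest fitted difference of PFC over midbrain among the 42 genes was that of Slc17a7 (chromosome 7, 45163949 to 45176142, plus strand, GRCm38), which encodes the vesicular glutamate transporter VGLUT1 of cortical excitatory neurons. Its CPM ran from 0 to 0.342 (median 0.0205) in midbrain, from 0.080 to 0.943 (median 0.462) in striatum and from 0.93 to 4.34 (median 1.55) in PFC. The PFC samples were all above the midbrain samples, with no overlap, and 11 of the 12 midbrain samples held 3 counts or fewer, 5 of them 0. Summed over samples there were 26 counts in midbrain, 239 in striatum and 1018 in PFC, and the level in PFC was 41.9 times that in midbrain (95% interval 28.4 to 64.4, counting error only). The fitted log2 difference was 5.51 ± 0.51 (SE; adjusted p = 6.89e-10) for PFC over midbrain, higher in 11 of 11 mice, and 3.33 ± 0.49 (SE; adjusted p = 1.72e-05) for striatum over midbrain, higher in 12 of 12 mice. Striatum was below PFC in every one of the 11 mice with both regions, with a log2 difference of -2.18 ± 0.42 (SE; adjusted p = 0.00627).

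Syn1 and Syn2 encode synapsins, which tether vesicles to the cytoskeleton. Syn1 ran from 0.0432 to 0.617 (median 0.267) CPM in midbrain, from 0.28 to 1.08 (median 0.705) in striatum and from 0.292 to 2.82 (median 1.11) in PFC. Midbrain and PFC overlapped, and the log2 difference was 2.17 ± 0.37 (SE; adjusted p = 0.000116) for PFC over midbrain, higher in 11 of 11 mice, and 1.43 ± 0.36 (SE; adjusted p = 0.0108) for striatum over midbrain, higher in 10 of 12 mice. For striatum over PFC it was -0.74 ± 0.36 (SE; adjusted p = 0.414), a call that was lost with the mouse as a block, where the difference was -0.67 (adjusted p = 0.454). Syn2 ran from 0 to 0.942 (median 0.459) CPM in midbrain, from 0.299 to 1.14 (median 0.582) in striatum and from 0.523 to 2.17 (median 0.961) in PFC. Its 3 regions overlapped, its PFC over midbrain difference was 1.38 ± 0.39 (SE; adjusted p = 0.0238) with a region adjusted p of 0.0469, and once sex was replaced by the mouse as a block the region adjusted p was 0.0935.

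Bsn encodes bassoon, a scaffold of the active zone. Its CPM ranged from 1.49 to 3.7 (median 2.39) in midbrain, from 1.87 to 7.58 (median 4.74) in striatum and from 1.63 to 8.09 (median 3.62) in PFC. The 3 regions overlapped, with log2 differences of 0.73 ± 0.23 (SE; adjusted p = 0.0458) for PFC and 0.94 ± 0.23 (SE; adjusted p = 0.00704) for striatum over midbrain, in 10 of 11 mice and 11 of 12 mice. Pclo, which encodes the related scaffold piccolo, averaged 0.143 CPM and had a region adjusted p of 0.675.

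The complexins clamp and release SNARE complexes. Cplx1 ran from 0.0209 to 1.39 (median 0.841) CPM in midbrain, from 0.448 to 2.38 (median 1.29) in striatum and from 0.835 to 4.55 (median 1.67) in PFC, and differed by 1.26 ± 0.34 (SE; adjusted p = 0.0156) between PFC and midbrain and by 0.76 ± 0.33 (SE; adjusted p = 0.172) between striatum and midbrain. Cplx2 ran from 0 to 0.50 (median 0.0769) CPM in midbrain, from 0.224 to 1.63 (median 0.39) in striatum and from 0.136 to 1.65 (median 0.47) in PFC, with differences of 2.02 ± 0.54 (SE; adjusted p = 0.0158) and 1.80 ± 0.53 (SE; adjusted p = 0.031). All regions overlapped for both genes, and 6 of the 12 midbrain samples of Cplx2 held 3 counts or fewer. With 1 mouse left out at a time, the region effect of Cplx1 passed in 5 and that of Cplx2 in 6 of 12 fits. Nrxn2, which encodes the presynaptic adhesion protein neurexin 2, ran from 0 to 0.346 (median 0.114) CPM in midbrain, from 0.155 to 0.677 (median 0.363) in striatum and from 0.0201 to 0.477 (median 0.316) in PFC. Its regions overlapped, and its difference was larger for striatum over midbrain, 1.57 ± 0.41 (SE; adjusted p = 0.0124), than for PFC over midbrain, 1.16 ± 0.41 (SE; adjusted p = 0.0891), where it was called by the unadjusted p.

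Syt11, a synaptotagmin that does not bind calcium, was the most abundant gene of the group per kb. Its level went from 23.3 to 42.6 (median 29.6) CPM in midbrain, from 23.8 to 41.4 (median 31.5) in striatum and from 13.6 to 34.1 (median 24.6) in PFC. The regions overlapped, the region adjusted p was 0.0732, and the PFC over midbrain difference was -0.38 ± 0.12 (SE; adjusted p = 0.0596), opposite in sign to those of the genes called. It was lower in PFC than in midbrain in 10 of 11 mice and higher in striatum than in PFC in 11 of 11 mice. With the mouse as a block, its region adjusted p was 0.00199, with differences of -0.42 (adjusted p = 0.00186) for PFC over midbrain and 0.39 (adjusted p = 0.0135) for striatum over PFC. Syt1, the calcium sensor of fast release, had a median of 0.0536 CPM in midbrain, 0.182 in striatum and 0.684 in PFC, with a region adjusted p of 0.0666 and, with the block, of 0.0144. The vesicle membrane genes Syp and Sv2a had medians of 3.57, 2.55 and 2.55 CPM and of 5.89, 6.72 and 5.62 CPM in midbrain, striatum and PFC, with region adjusted p-values of 0.38 and 0.144. For Syp, a widely used marker of presynaptic terminals, the fitted log2 differences of PFC and striatum over midbrain were negative, -0.33 ± 0.21 and -0.40 ± 0.20. An antisense gene covers 16.8% of the exon length of Syp.

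Of the 8 genes of the SNARE machinery, 3 had a region effect, against 8.89% of all genes. Snap25 and Vamp2 were the 2 that were higher in PFC and in striatum than in midbrain (2.75% and 3.50% of all genes). Snap25 (chromosome 2, 136713453 to 136782428, plus strand) encodes the target-membrane SNARE of neurons. Its values ran from 0.60 to 4.09 (median 2.45) CPM in midbrain, from 2.17 to 7.66 (median 4.69) in striatum and from 3.33 to 13.9 (median 6.45) in PFC. Midbrain was the lowest region, at 2.35 ± 0.928 CPM (mean ± SD, n = 12), PFC was the highest, at 7.3 ± 2.95 (n = 11), and the ranges overlapped. The log2 difference was 1.63 ± 0.25 (SE; adjusted p = 1.93e-05) for PFC over midbrain, in 11 of 11 mice, 0.98 ± 0.25 (SE; adjusted p = 0.0104) for striatum over midbrain, in 11 of 12 mice, and -0.65 ± 0.25 (SE; adjusted p = 0.241) for striatum over PFC.

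Of the 13 genes above 5 CPM, Vamp2 (chromosome 11, 69088490 to 69092384, plus strand) was the only one with a called pair in the fit without pairing. Its CPM went from 29.1 to 53.6 (median 40.1) in midbrain, from 43.9 to 62.2 (median 51.4) in striatum and from 42.3 to 55 (median 47.6) in PFC. The samples of midbrain were low and those of the other regions high, with overlap, at 39.7 ± 6.71 CPM (SD, n = 12) in midbrain, 51.5 ± 5.44 (n = 12) in striatum and 48.5 ± 4.33 (n = 11) in PFC. The log2 difference was 0.38 ± 0.07 (SE; adjusted p = 0.000235) for striatum over midbrain and 0.30 ± 0.07 (SE; adjusted p = 0.00367) for PFC over midbrain, and every mouse with both regions showed it (12 of 12 mice and 11 of 11 mice). Unlike those of the 7 genes that were lower in striatum than in PFC, its fitted log2 difference of striatum over PFC was positive, 0.08 ± 0.07 (SE; adjusted p = 0.702). On the scale of CPM the gap between striatum and midbrain means was larger for Vamp2 than for any gene below 5 CPM.

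Nsf, the ATPase that takes SNARE complexes apart, moved the other way. Its level ranged from 47 to 69.1 (median 60.8) CPM in midbrain, from 48.1 to 58.7 (median 51.8) in striatum and from 42.5 to 63.8 (median 54.5) in PFC. Midbrain was the highest region, with overlap, and the log2 differences were -0.21 ± 0.06 (SE; adjusted p = 0.0282) for striatum and -0.18 ± 0.06 (SE; adjusted p = 0.0891) for PFC over midbrain, below the 1.2-fold minimum, so that no pair was called. Napa (chromosome 7, 16098458 to 16117975, plus strand), the most abundant of the 42 genes per kb, had no region effect. Its samples ran from 180.4 to 219 (median 208) CPM in midbrain, from 197 to 228 (median 209) in striatum and from 202 to 239.6 (median 214) in PFC, with a region adjusted p of 0.277 and a PFC over midbrain difference of 0.10 ± 0.04 on the log2 scale.

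The other 4 SNARE genes had no region effect. Snap23 had medians of 135 CPM in midbrain, 126 in striatum and 130.1 in PFC, a region adjusted p of 0.0624, and with the block one of 0.00872. Snap29, a SNARE of autophagosome fusion, Vamp1, a vesicle SNARE related to Vamp2, and Napb averaged 17.7, 2.63 and 2.1 CPM, with region adjusted p-values of 0.366, 0.58 and 0.954. For Napb, the adaptor best known from brain, the log2 difference of PFC over midbrain was -0.11 ± 0.24, a value near 0 for a gene below 5 CPM.

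**Figure D4:**
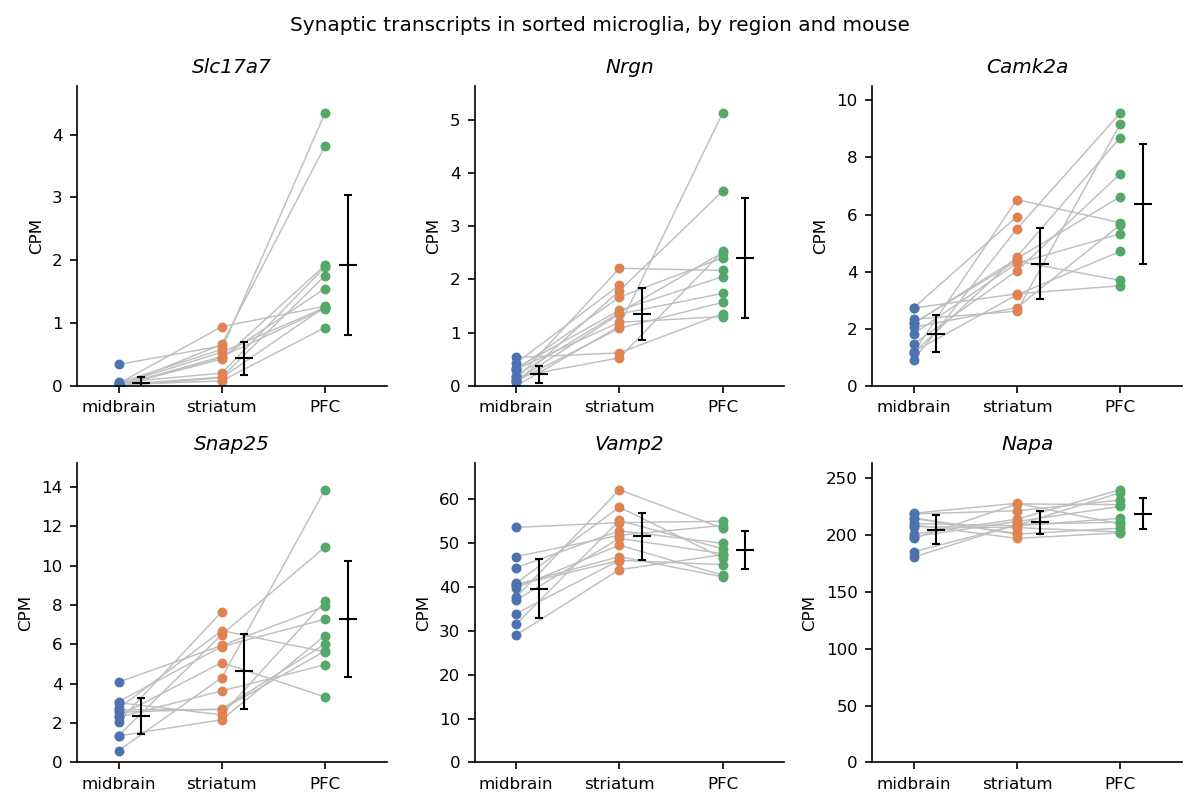
CPM of 6 synaptic genes in every sample by region, with grey lines joining the samples of 1 mouse and black bars giving mean ± SD (midbrain and striatum, n = 12; PFC, n = 11). Slc17a7, Nrgn and Camk2a in PFC lie above every midbrain sample, Snap25 and Vamp2 are higher with overlap, and Napa is near level at 180.4 to 239.6 CPM.

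Of the 12 genes of postsynaptic scaffolds and adhesion, 4 were higher in PFC and in striatum than in midbrain (2.75% and 3.50% of all genes). They were Shank1, Shank2, Dlgap1 and Dlg2. Shank1, a master scaffold of the postsynaptic density, had the most counts of these. Its CPM ran from 0.133 to 1.23 (median 0.835) in midbrain, from 0.609 to 2.19 (median 1.28) in striatum and from 1.12 to 5.12 (median 2.47) in PFC. The ranges of midbrain and PFC overlapped only at their edges, striatum overlapped both, and the log2 difference was 1.77 ± 0.28 (SE; adjusted p = 2.61e-05) in 11 of 11 mice for PFC over midbrain, 0.87 ± 0.27 (SE; adjusted p = 0.0419) in 9 of 12 mice for striatum over midbrain and -0.90 ± 0.27 (SE; adjusted p = 0.118) for striatum over PFC. Dlgap1, which links Shank to Dlg proteins, ran from 0.0216 to 1.02 (median 0.675) CPM in midbrain, from 0.579 to 1.36 (median 0.95) in striatum and from 0.376 to 3.76 (median 1.38) in PFC, and differed by 1.59 ± 0.39 (SE; adjusted p = 0.0069) between PFC and midbrain and by 0.81 ± 0.38 (SE; adjusted p = 0.219) between striatum and midbrain, with overlap of all regions. Its difference of striatum over PFC was -0.78 ± 0.38 (SE; adjusted p = 0.426), and with the mouse as a block, where the call was lost, -0.70 (adjusted p = 0.401).

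Shank2 and Dlg2, the latter encoding PSD-93, were near the floor. Shank2 had 8 counts in all midbrain samples together, 0 in 10 of them, against 61 in striatum and 140 in PFC. The level in PFC was 18.7 times that in midbrain (95% interval 9.24 to 44.2) and the level in striatum 7.72 times (3.68 to 18.7), both intervals for counting error only. Its CPM ranged from 0 to 0.13 (median 0) in midbrain, from 0 to 0.258 (median 0.0977) in striatum and from 0 to 0.784 (median 0.162) in PFC, and its fitted log2 difference was 4.0 ± 0.84 (SE; adjusted p = 0.0015) for PFC over midbrain. Dlg2 had 19 counts in midbrain, 112 in striatum and 156 in PFC. Its level went from 0 to 0.164 (median 0) CPM in midbrain, from 0 to 0.494 (median 0.185) in striatum and from 0 to 0.909 (median 0.195) in PFC, its fitted log2 difference was 2.96 ± 0.84 (SE; adjusted p = 0.0234) for PFC over midbrain, and its region adjusted p was 0.0477, or 0.0573 with the mouse as a block. The regions of both genes overlapped, and fitted differences of genes with so few counts depend on the prior count of the fit.

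Dlgap4, a partner of Dlg proteins and the most abundant gene of the group per kb, had no region effect. Its values ran from 46.7 to 73.3 (median 61.9) CPM in midbrain, from 51.8 to 78.7 (median 67.5) in striatum and from 46.5 to 71.2 (median 57.9) in PFC, with a region adjusted p of 0.365 and log2 differences of -0.02 ± 0.08 for PFC and 0.14 ± 0.08 for striatum over midbrain. Homer3 and Homer1, which link receptors to Shank, and Dlg1, which encodes SAP97, averaged 17.3, 4.95 and 12.8 CPM and had region adjusted p-values of 0.656, 0.961 and 0.49. Dlg4, which encodes PSD-95, the most used marker of excitatory postsynapses, averaged 0.331 CPM, with a region adjusted p of 0.446. The postsynaptic adhesion genes Nlgn2 and Nlgn3 averaged 0.251 and 0.342 CPM, with region adjusted p-values of 0.995 and 0.945, and 41.2% of the exon length of Nlgn3 is shared with another gene on the same strand. Shank3 had 5 counts in midbrain, 32 in striatum and 29 in PFC, with a region adjusted p of 0.0951.

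The 4 glutamate receptor genes were all at the lower end of the counts. Grin1 and Grin2b, which encode NMDA receptor subunits, were higher in PFC and in striatum than in midbrain (2.75% and 3.50% of all genes). Grin2b had 2 counts in all 12 midbrain samples together, 86 in striatum and 45 in PFC. The level in striatum was 43.5 times that in midbrain (95% interval 11.7 to 365) and the level in PFC 24.1 times (6.28 to 205), both intervals for counting error only. Its CPM went from 0 to 0.0233 (median 0) in midbrain, from 0 to 0.411 (median 0.118) in striatum and from 0 to 0.26 (median 0.0789) in PFC, and its fitted log2 differences were 4.61 ± 0.85 (SE; adjusted p = 0.000491) for striatum and 3.82 ± 0.85 (SE; adjusted p = 0.00271) for PFC over midbrain. Every midbrain sample was at 3 counts or fewer.

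Grin1 had 14 counts in midbrain, 57 in striatum and 158 in PFC. Its level ranged from 0 to 0.214 (median 0) CPM in midbrain, from 0 to 0.516 (median 0.0578) in striatum and from 0.0215 to 0.74 (median 0.194) in PFC, and its fitted log2 difference was 3.44 ± 0.90 (SE; adjusted p = 0.0124) for PFC and 1.96 ± 0.87 (SE; adjusted p = 0.185) for striatum over midbrain. The ranges of both genes overlapped between regions, and an antisense gene covers 13.5% of the exon length of Grin1. The AMPA receptor gene Gria1, the most abundant of the 4 per kb, had no region effect. Its samples ran from 0 to 1.03 (median 0.213) CPM in midbrain, from 0 to 0.594 (median 0.162) in striatum and from 0 to 1.48 (median 0.0968) in PFC, with a region adjusted p of 0.57 and log2 differences of -0.31 ± 0.69 for PFC and -1.12 ± 0.69 for striatum over midbrain. Gria2, another AMPA receptor gene, had medians of 0.0333, 0.261 and 0.279 CPM in midbrain, striatum and PFC and a region adjusted p of 0.176.

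Of the 6 genes of calcium and activity signalling, Camk2a and Nrgn were higher in PFC and striatum than in midbrain (2.75% and 3.50% of all genes). Both were lower in striatum than in PFC (0.833%). Nrgn (chromosome 9, 37544492 to 37552904, minus strand) encodes neurogranin, which holds calmodulin at the postsynapse. Its CPM ran from 0 to 0.535 (median 0.182) in midbrain, from 0.528 to 2.21 (median 1.36) in striatum and from 1.3 to 5.12 (median 2.17) in PFC. Every PFC sample was above every midbrain sample, and so were the striatum samples but for those at the edge of the midbrain range. The log2 difference was 3.41 ± 0.36 (SE; adjusted p = 1.72e-08) for PFC over midbrain, in 11 of 11 mice, 2.59 ± 0.35 (SE; adjusted p = 6.03e-06) for striatum over midbrain, in 12 of 12 mice, and -0.82 ± 0.32 (SE; adjusted p = 0.277) for striatum over PFC.

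Camk2a, the alpha subunit of calmodulin kinase II, ran from 0.911 to 2.74 (median 1.94) CPM in midbrain, from 2.62 to 6.52 (median 4.33) in striatum and from 3.51 to 9.54 (median 5.71) in PFC. PFC and midbrain did not overlap, and striatum lay between them, at 4.28 ± 1.24 CPM (SD, n = 12) against 1.83 ± 0.635 (n = 12) in midbrain and 6.36 ± 2.11 (n = 11) in PFC. The log2 difference was 1.79 ± 0.20 (SE; adjusted p = 4.66e-08) for PFC over midbrain, 1.22 ± 0.20 (SE; adjusted p = 6.81e-05) for striatum over midbrain, in 12 of 12 mice, and -0.57 ± 0.19 (SE; adjusted p = 0.176) for striatum over PFC.

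Camk2d, the most abundant gene of this group per kb, had no region effect. Its CPM ranged from 92 to 127 (median 113) in midbrain, from 97.6 to 130.0 (median 113) in striatum and from 86.3 to 133 (median 112) in PFC, with a region adjusted p of 0.87 and a PFC over midbrain difference of 0.03 ± 0.06. Camk2g and Camk2b, which encode the gamma and beta subunits, averaged 7.09 and 6.73 CPM, with region adjusted p-values of 0.446 and 0.239. For Camk2b the PFC over midbrain difference was 0.51 ± 0.20 (SE; adjusted p = 0.148) in 10 of 11 mice, and with the mouse as a block its region adjusted p was 0.0244. Arc, an immediate early gene of active neurons that is also induced in other cells, ran from 0 to 10.8 (median 2.39) CPM in midbrain, with a region adjusted p of 0.73. The summed level of 10 other dissociation and activity genes had medians of 34171, 33098 and 31992 CPM in midbrain, striatum and PFC, with 0 region effects among them.

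Further synaptic genes, listed by function and outside the 42, were counted in the same way. Of 37 presynaptic genes listed, 33 were in the table and 5 had a region effect (15.2%, against 8.89% of all genes). Of these, 4 were higher in PFC than in midbrain (2.75% of all genes) and 0 lower (3.24%), and 2 were higher in striatum than in midbrain (3.50%) and 0 lower (2.98%). Of 32 postsynaptic genes, 29 were in the table, 6 had a region effect (20.7%), 4 were higher and 1 lower in PFC than in midbrain, and 4 were higher and 0 lower in striatum. Dlg3, the gene that was lower in PFC, averaged 10.8 CPM and differed by -0.53 ± 0.14 (SE; adjusted p = 0.0143).

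The other synaptic genes divided by level in their median differences but not in the share with a region effect. Of the presynaptic genes, 3 of the 21 below 5 CPM (14.3%) and 2 of the 12 above (16.7%) had one. Of the postsynaptic genes, 4 of the 22 below (18.2%) and 2 of the 7 above (28.6%) did. Over all genes these shares were 6.81% below and 11.4% above. The median log2 difference of PFC over midbrain was 1.02 over the 21 presynaptic genes below 5 CPM and -0.06 over the 12 above. It was 0.79 over the 22 postsynaptic genes below 5 CPM and 0.09 over the 7 above. Among the genes above 5 CPM, Stx7, a SNARE of endosomes, was the presynaptic gene with the highest CPM, at 386 CPM.

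Markers of neurons that belong to 1 of the regions were set beside these values. Of 8 striatal projection neuron markers, 6 were in the table, and their sum was 0.656 to 2.91 (median 2.23) CPM in midbrain, 4.52 to 17.3 (median 6.05) in striatum and 0.236 to 4.37 (median 1.8) in PFC. The striatum sample of mouse 3, whose column was named for PFC, had a sum of 11.9 CPM, above every PFC sample. The striatum samples were higher than the midbrain sample of the same mouse in 12 of 12 mice and higher than the PFC sample in 11 of 11. The gene with the highest CPM was Ppp1r1b, which encodes DARPP-32, at means of 1.14, 4.8 and 1.25 CPM in midbrain, striatum and PFC.

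The 5 cortical excitatory neuron markers summed to 0.0428 to 0.67 (median 0.24) CPM in midbrain, 0.044 to 0.433 (median 0.259) in striatum and 0.125 to 1.94 (median 0.503) in PFC. Of the 5, 2 were higher in PFC than in midbrain (2.75% of all genes), and Neurod6 had means of 0.00695, 0.0525 and 0.291 CPM. Of 7 markers of midbrain dopaminergic neurons 4 were in the table, and their sum, most of it from Slc18a2, had medians of 8.51, 7.68 and 8.33 CPM. These sums overlapped among all regions, but 1 of the 4, Th, which encodes tyrosine hydroxylase, had a region effect and was lower in striatum than in midbrain, with 117 counts in midbrain, 1 in striatum and 48 in PFC. The fitted differences were negative for 3 of the 4 for PFC over midbrain, with a median of -1.39, and for 3 of the 4 for striatum over midbrain, with a median of -0.37. By their medians, the sums of striatal markers were highest in striatum and those of cortical markers in PFC. Astrocyte markers had summed medians of 241, 354 and 341 CPM in midbrain, striatum and PFC, oligodendrocyte markers 414, 469 and 299, and endothelial markers 79.7, 99.7 and 84.2. The part of these cell types in the levels of the synaptic genes was not tested.

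The comparison between males and females, in which a gene needed a fold change over 1.2 and an unadjusted p under 0.05, found 2 of the 42 genes, against 4.13% of all genes. Both were higher in males. Slc17a7 differed by 1.23 ± 0.36 on the log2 scale (SE; unadjusted p = 0.00162, adjusted p = 0.164) and Napb by 0.45 ± 0.20 (unadjusted p = 0.0274, adjusted p = 0.526). With adjusted p-values 0 of the 42 passed, against 0.339% of all genes. For the interaction of region and sex 0 of the 42 passed by edgeR, and so did 0 of all 21236 genes, and 1 of the 42, Snap25 (unadjusted p = 0.0222), had an unadjusted p under 0.05, against 2.98% of all genes.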

How the data were processed

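RNA from tdTomato-positive cells was amplified with Smart-Seq HT and sequenced as paired reads. The values the authors deposited were raw read counts for each Ensembl gene, without normalization, after FastQC 0.11.9, Trimmomatic 0.38 and alignment to GRCm38 with HISAT2 2.2.0; the counting tool, annotation release and use of strand were not given in the sources used here. A filter on low expression is described for the table, but 8379 of its 21236 genes had a highest mean below 1 CPM over the combinations of region and sex.

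Symbols, positions and merged exon lengths came from GENCODE M21 (GRCm38), in which 133 genes had no symbol, and promoter windows from RefSeq. CPM used TMM factors from edgeR 4.0.16 in R 4.3.3, and 1 model of region and sex was fitted to all 35 samples and all genes with the robust quasi-likelihood method and its default prior count of 0.125. The call rules for regions, pairs and sex took their thresholds from the study's methods. The fit was tested on simulated data, with changes only in genes above a mean of 1 CPM and samples drawn independently. That test therefore did not cover changes in genes below 1 CPM or samples that share a mouse. Intervals on ratios of summed counts are exact 95% intervals on reads pooled over the mice of a region. They cover counting error only and leave out the variation between mice. Reads without molecular identifiers are also not independent molecules, so the counting error itself may be larger.

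Samples of different regions were paired by the mouse number in their titles, which matches the study's 12 mice. The deviations of 34 same-mouse pairs from their group means had a mean correlation of 0.22, against -0.04 for 170 pairs of different mice, over 12297 genes. The mouse as a block was an alternative, and blocked values stand beside results whose call it changed. The other alternatives were DESeq2 1.42.0, its size factors in edgeR, filterByExpr, limma 3.58.1 with voom and the mouse as a random effect, a neuronal marker term, mice 1 to 6 or 7 to 12 alone or as a term, fits that left out the mouse 3 striatum or the mouse 11 PFC sample, each mouse left out in turn, and other levels for the division at 5 CPM.

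The members, marker lists and rules were chosen with earlier results of these data known. Genes with a region effect, and the most abundant gene of each functional group, were given with full values. Genes of the other lists were named by a region effect and a mean of at least 1 CPM or by being among the 3 highest in CPM, except Rbfox3, Stmn2 and Th, which were named after their values were seen to account for every gene of a small count. The values of some listed genes are not reported here.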

Additional observations from a re-analysis of the deposited data

How the results depend on the processing

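Slc17a7, Nrgn, Camk2a and Snap25 had a region effect in all 23 settings tried. The count of region effects, 18 of 42, was 21 with DESeq2, 22 with limma-voom, 18 with DESeq2 size factors and 15 with filterByExpr, which kept 36 of the 42 genes. It was 6 in mice 1 to 6 alone, 5 of them among the 18, and 15 in mice 7 to 12 alone, 14 of them among the 18. In mice 1 to 6, 6 genes were called between PFC and midbrain (5 higher in PFC and 1, Syt11, lower). There were 5 calls for striatum against midbrain and 3 for striatum against PFC (1 higher in striatum and 2 lower). Both fits had fewer samples than the main fit, and why the counts of 6 and 15 differed was not tested. With the neuronal marker term the count of region effects was 8, with 8 calls between PFC and midbrain and 6 between striatum and midbrain. The cause of the loss was not tested. With adjusted p-values for the pair or for sex, 1 gene was called between striatum and PFC in place of 7 and 0 for sex in place of 2. With 1 mouse left out, the counts ran from 11 to 16 for the region effect, from 11 to 15 for PFC against midbrain and from 10 to 14 for striatum against midbrain, each lowest without mouse 11, from 5 to 8 for striatum against PFC and from 1, without mouse 2, to 3 for sex. The region effects of Syn2, Dlg2, Nsf, Cplx1, Cplx2, Nrxn2, Grin1 and Dlgap1 passed in 2, 3, 3, 5, 6, 6, 9 and 11 of these 12 fits, and the other 10 passed in all. With the mouse as a replicate block the count was 20, of which 16 were among the 18, and there were 18, 16 and 8 called pairs in place of 17, 16 and 7. The block also took away the calls of Dlgap1 and Syn1 between striatum and PFC. At 2 CPM 21 genes lay above the division, and at 5 CPM per kb 8 did, in place of 13. The genes moved above it at 2 CPM were Snap25, Camk2a and Bsn, called against midbrain, and Homer1, Syp, Vamp1, Arc and Napb, not called. Over single genes and pairs, 765 values kept their direction and call and 187 kept their direction but lost the call, and 0 called values changed direction. Depth limits Slc17a7, Grin1, Grin2b, Gria2, Shank2, Shank3, Dlg2 and Pclo, most of whose midbrain samples held 3 counts or fewer.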
